A study of Mus musculus with 2 samples.

Results

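Lef1 occupancy at genes of the translation machinery was described in mouse CD4+ T cells. The genes were taken by name from the RefSeq annotation of GRCm38: every protein-coding gene whose symbol starts with Eif, Mrpl, Mrps, Rpl or Rps followed by a digit, without the Rps6k kinases. This gave 221 genes of 21887 protein-coding genes. They comprised 53 Rpl and 34 Rps genes, named for the large and small subunit of the cytosolic ribosome, 49 Mrpl and 29 Mrps genes, named for the subunits of the mitochondrial ribosome, and 56 Eif genes, named for eukaryotic initiation factors. Of the 2052 listed Lef1 peaks, 20 were assigned to 20 of these genes, 1 peak each.

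Chromatin was immunoprecipitated with an antibody to Lef1 (C18A7) and sequenced. The wild-type library came from conventional CD4+ T cells (TCRb+, GFP-, CD25-) sorted from spleens of C57BL/6 mice of 8 to 10 weeks. Neither the meaning of the GFP gate nor the number of mice is stated in the labels. The background library came from CD4+ T cells (TCRb+, CD4+) of C57BL/6 mice that carry CD4-Cre and floxed Lef1 alleles (CD4-Cre+ Lef1 fl/fl), so Lef1 was deleted in cells that express the Cre of the Cd4 promoter. The gates differ as written, since the deficient cells have no CD25 criterion, while the tissue is given as naive CD4 T cells for both. Each genotype had 1 library and no replicate. The peaks were called on the wild-type library with the deficient one as control, so no difference between samples could be tested, and every value below describes 1 list of calls. The depth of the libraries is unknown. A score is the authors' −log10 p of a peak. It measures read excess in these libraries, not reproducibility. Over the whole list scores ran from 4.01 to 38.17 with a median of 4.40.

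Lef1 belongs to the TCF/LEF transcription factors, which recognise a short A/T-rich element through an HMG box, and it is a central regulator of T cell development. Ribosomes are built from RNA and many small proteins in a large and a small subunit, and initiation factors bring the mRNA, the initiator tRNA and the small subunit together. The mitochondrial ribosome is a separate machine that makes the few proteins encoded in mitochondrial DNA. Resting T cells are known for a low rate of protein synthesis, which rises when they are activated.

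Peaks that overlapped the promoter window of their own gene are shown first, because they are the sites where sequence can be set beside a peak. The windows, from RefSeq on GRCm38.p6, run from 250 bases before an annotated start to 50 bases after it, and are printed here to 30 bases after it. Of the 221 genes, 180 had a window, among them 14 of the 20 with a peak. A peak overlapped an own window at 4 of the 180 (2.22%), against 1.37% of the 17492 protein-coding genes with a window. Capitals mark the bases inside the peak. Rpl27 is on the plus strand at chr11:101441995-101442274, Rps3a1 on the minus strand at chr3:86142639-86142918, Mrpl30 on the plus strand at chr1:37890227-37890506 and Eif4g3 on the plus strand at chr4:137993205-137993484.
Rpl27: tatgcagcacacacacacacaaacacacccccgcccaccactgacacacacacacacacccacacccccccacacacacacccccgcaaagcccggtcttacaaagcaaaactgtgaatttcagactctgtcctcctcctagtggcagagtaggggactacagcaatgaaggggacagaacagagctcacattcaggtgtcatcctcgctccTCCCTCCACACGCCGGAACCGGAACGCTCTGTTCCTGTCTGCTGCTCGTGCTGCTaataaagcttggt
Rps3a1: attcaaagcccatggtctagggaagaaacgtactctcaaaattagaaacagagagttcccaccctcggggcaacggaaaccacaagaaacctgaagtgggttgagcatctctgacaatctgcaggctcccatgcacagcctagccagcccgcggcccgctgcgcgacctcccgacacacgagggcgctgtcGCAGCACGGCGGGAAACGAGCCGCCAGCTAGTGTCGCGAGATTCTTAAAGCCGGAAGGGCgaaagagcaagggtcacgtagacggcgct
Mrpl30: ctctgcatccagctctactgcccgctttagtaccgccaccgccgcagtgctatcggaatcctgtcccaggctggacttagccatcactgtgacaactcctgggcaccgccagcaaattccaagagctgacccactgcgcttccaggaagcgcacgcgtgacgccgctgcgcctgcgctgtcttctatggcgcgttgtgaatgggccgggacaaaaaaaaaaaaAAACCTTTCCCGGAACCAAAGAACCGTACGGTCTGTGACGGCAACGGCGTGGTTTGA
Eif4g3: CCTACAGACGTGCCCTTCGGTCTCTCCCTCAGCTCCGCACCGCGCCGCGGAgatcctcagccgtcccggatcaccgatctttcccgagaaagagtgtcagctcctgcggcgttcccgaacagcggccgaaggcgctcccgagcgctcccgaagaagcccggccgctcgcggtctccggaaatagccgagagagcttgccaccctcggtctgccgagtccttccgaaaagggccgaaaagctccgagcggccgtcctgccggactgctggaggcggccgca

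In 3 of the 4 the peak reached the annotated start. Counting the start as 0, the peak spanned -38 to 16 at Rpl27, -59 to 0 at Rps3a1 and -27 to 65 at Mrpl30. At Eif4g3 it lay upstream of the start, from -315 to -200, so that its first part is outside the window. The TCF/LEF words searched were CTTTGAA and CTTTGAT on both strands. Of the 4 windows, 1 held such a word, that of Rps3a1, with its first base at -249, outside the peak. No peak part of the 4 windows held one, against 13% of the 239 genes whose own window a peak overlapped and 7.83% of all whole windows. The shorter word CAAAG was found on the sense strand inside the Mrpl30 peak at -11. It was thus in 1 of the 4 peak parts, where on either strand 31.4% of those of the 239 genes held it.

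The letters CCGGAA, a word chosen after the windows were seen, stood inside the peak in the 3 windows where the peak reached the start. It began at -26 and again at -20 in Rpl27, at -9 in Rps3a1 and at -18 in Mrpl30, each on the sense strand. In Eif4g3 it began at -76, outside the peak. The peak parts of 15.5% of the 239 genes held CCGGAA on either strand, and 19.1% of all windows did. Whole windows of translation genes held it more often, at 50% of 180, and at 48.2% of the 166 with no peak. CCGGAA contains the core of the sites bound by ETS factors. It overlaps the longer word CCGGAAG, which was found in the peak of Rps3a1 alone among the 4. A match is a string of letters and says nothing of what bound there.

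Peaks were found at 20 of the 221 translation genes (9.05%, 95% exact Clopper-Pearson interval 5.62 to 13.6%), against 6.68% of all protein-coding genes. The background lay inside that interval, which covers counting error only. A peak belonged to a gene when its centre was nearest to that gene's body, within 50 kb. The farthest assigned peak lay 41.1 kb from its gene, and widening the limit to 100 kb added no gene. Classed by symbol alone, Eif genes had peaks at 8 of 56 (14.3%, 6.38 to 26.2%) and Mrpl genes at 5 of 49 (10.2%, 3.4 to 22.2%). Rps genes had 3 of 34 (8.82%, 1.86 to 23.7%), Mrps genes 2 of 29 (6.9%, 0.846 to 22.8%) and Rpl genes 2 of 53 (3.77%, 0.46 to 13%). The intervals of the 5 classes overlapped one another, and each held the background.

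**Figure D1:**
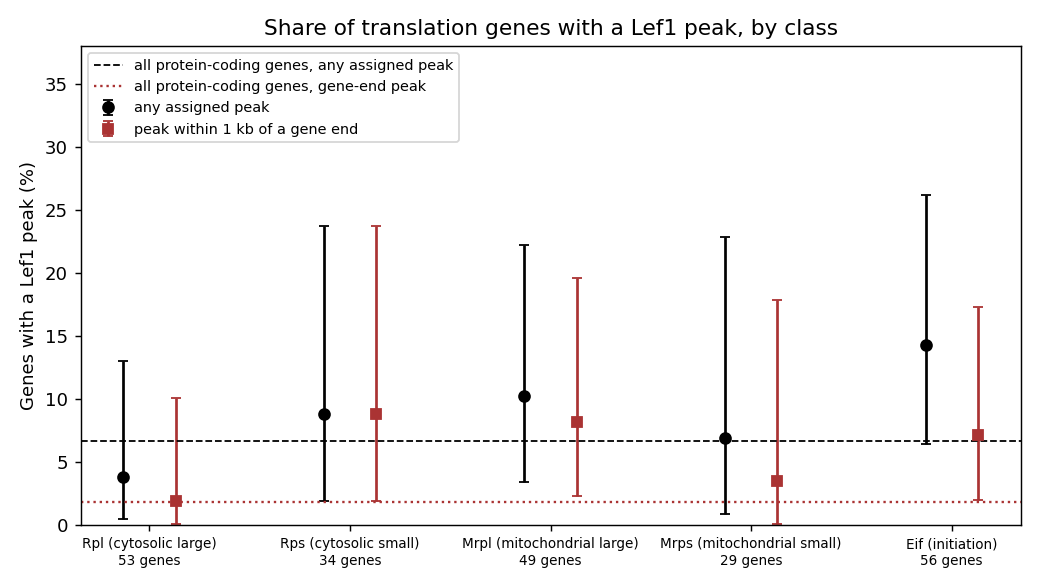
Share of genes of each class with an assigned Lef1 peak (circles) and with a peak within 1 kb of a gene end (squares), in percent, with 95% exact binomial intervals, and the same shares over all protein-coding genes as lines. Eif genes stood highest at 14.3% for any peak and Rpl genes lowest at 3.77%, with intervals that overlapped.

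Most of these peaks lay at an end of the gene. The peak centre was within 1 kb of either end at 13 genes (5.88%, 3.17 to 9.85%), against 1.79% of all protein-coding genes, a share below that interval. At the other 7 genes (3.17%, 1.28 to 6.42%) it lay further from both ends, against 4.88%, inside the interval. By class, gene-end peaks were at 4 Eif genes (7.14%), 4 Mrpl (8.16%), 3 Rps (8.82%), 1 Mrps (3.45%) and 1 Rpl (1.89%). All 3 Rps genes with a peak had it at a gene end, while 4 of the 8 Eif genes did not. Counted over peaks, 65% of those of translation genes lay at a gene end, 10% deeper inside and 25% outside, while the shares over all 1668 assigned peaks were 24.9%, 48.2% and 26.9%. This split was not read by gene length, and translation genes are shorter than most, so the 2 sets are not alike in it. The gene nearest to the 1 kb limit was Mrpl45 on the inner side, at 947 bp, and Eif4a1 on the outer, at 1065.5 bp. Of the 13 gene-end peaks, 7 belonged to genes whose strand the promoter table gives, and all 7 lay at the 5' end. Among all such peaks 318 of 342 (93%) did. An annotated start lay within 1 kb of the peak at 7 of the 180 translation genes in the table (3.89%, 1.58 to 7.85%), against 2.01% of the 17492 genes, inside that interval. That share leaves out the 41 translation genes with no annotated start there, which hold 6 of the 13 gene-end peaks. Over all genes, 74 of 416 gene-end peaks were at genes without a strand in the table.

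**Figure D2:**
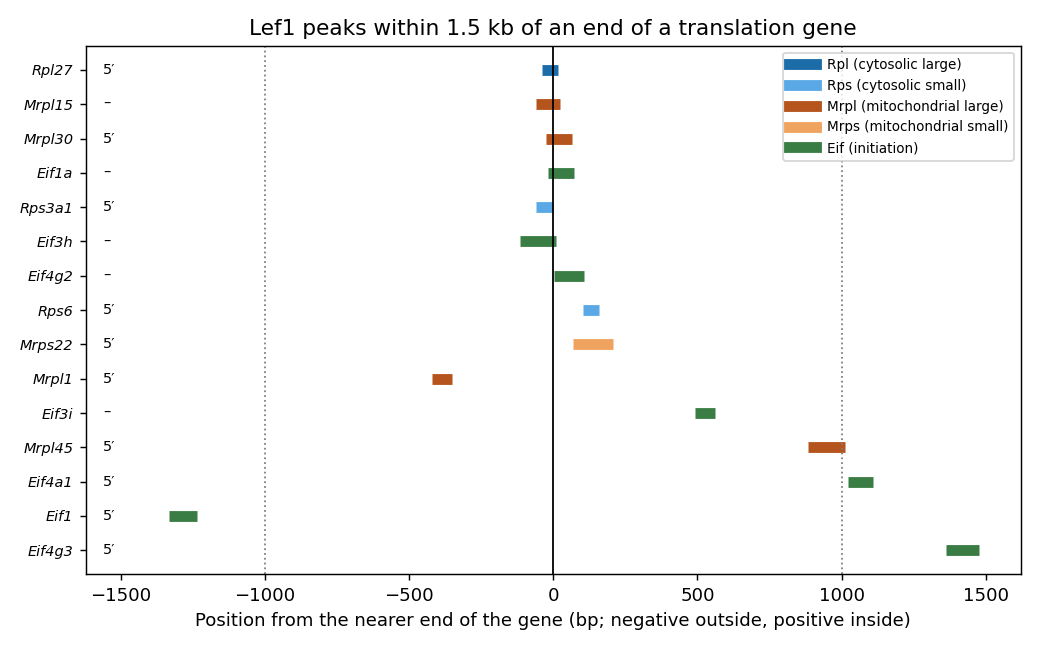
Extent of each peak within 1.5 kb of an end of its gene, in bp from the nearer end, negative outside the gene and positive inside; the column at the left gives the end (5' by strand, a dash where the strand is not in the table), and dotted lines mark 1 kb. Of the 13 gene-end peaks, 1 is not drawn; the 12 drawn with centres between the dotted lines include 7 at a 5' end.

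Translation genes are short, and the shares were therefore also read within bands of gene length. The median body was 5.32 kb, against 17.2 kb over all genes. Of 104 translation genes up to 5 kb long, 7 (6.73%) had a peak, against 2.01% of all genes of that length. The shares were 7.41% of 54 and 4.08% between 5 and 10 kb, 14.3% of 42 and 5.55% between 10 and 30 kb, and 14.3% of 21 and 11.8% above 30 kb. The members' share stood above that of all genes in each of the 4 bands, on 3 to 7 genes per band. The closest pair was that above 30 kb, 14.3% against 11.8%. For gene-end peaks the shares were 3.85% against 0.755%, 3.7% against 1.69%, 11.9% against 1.98% and 9.52% against 2.36%, on 2 to 5 genes per band. No intervals were computed for the bands, so these shares are a description.

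The highest scores of the translation genes, 8.26 and 6.01, were at initiation factor genes of the eIF4 group. The strongest peak of the translation genes, with a score of 8.26, ranked 69 of 2052. It lay just inside an end of Eif4g2 (chr7:111082922-111083026, 105 bp wide), with its centre 56 bp from the end of the gene. Eif4g2 encodes a relative of the eIF4G scaffold that supports initiation without the cap-binding protein eIF4E. Eif4a1, which encodes the RNA helicase that unwinds the leader of mRNAs, had a peak of 6.01 inside the gene (chr11:69671314-69671401, 88 bp), 1065.5 bp from its 5' end. Eif4g3, another eIF4G scaffold, had the peak of 5.44 shown above (chr4:137993140-137993255, 116 bp). The body of Eif4g3 begins further upstream than the start in the promoter table, so this peak counted as inside the gene, 1418.5 bp from the gene's end, although its centre was 257.5 bp from an annotated start. The other 11 of the 14 eIF4 genes had none, and these included all 4 genes of eIF4E and its relatives, the cap-binding proteins.

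Genes of the eIF1 group, taken by symbol, had peaks at 3 of 5, too few for the share to be read closely (interval 14.7 to 94.7%). Eif1, which guards the choice of the start codon, had a peak of 5.91 lying 1283.5 bp beyond its 5' end (chr11:100318617-100318714, 98 bp). Eif1a, one of the genes of the scanning factor eIF1A, had a peak of 5.44 across a gene end (chr18:46597684-46597775, 92 bp). The next protein-coding gene, Tmed7, was 194 bp from that peak's centre, so the site lies between close neighbours and cannot be given to 1 of them by distance alone. Eif1b, a close homologue of Eif1, had a peak of 4.04, the lowest score among the translation genes (chr9:120502372-120502426, 55 bp). It lay 7.07 kb beyond the 3' end, and the pseudogene Gm7229 was 323 bp from it. Eif1ad and Eif1ax had no peak.

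Of 14 genes of eIF3, the multisubunit scaffold on the small ribosomal subunit, 2 had a peak, and both scored below the median of the list. At Eif3i the peak of 4.34 lay inside the gene, 527 bp from an end and 548 bp from Tmem234 (chr4:129600087-129600155, 69 bp). At Eif3h the peak of 4.14 crossed an end of the gene (chr15:51865452-51865575, 124 bp). No peak was assigned to the 5 genes of eIF2B, the exchange factor of eIF2 (Eif2b1 to Eif2b5), to the 6 other Eif2 genes that encode eIF2 subunits or related factors, or to the 4 Eif2ak kinases that act on eIF2. The 3 Eif4ebp genes, whose products hold eIF4E inactive, had none either, nor did Eif5, Eif5a, Eif5a2, Eif5b and Eif6. For 0 of 5 genes the interval reached 52.2%, so that these counts do not separate the groups from the background.

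Rpl and Rps genes, taken by symbol, had peaks at 5 of 87 (5.75%, 1.89 to 12.9%), against 6.68% of all protein-coding genes. Of these peaks 4 scored above 4.40, as did 32.6% of all assigned peaks. In the small subunit, Rps3a1 had its peak of 4.99 directly upstream of the start (chr3:86142668-86142727, 60 bp). Rps6, the ribosomal protein phosphorylated by the S6 kinases, had one of 4.83 inside the gene, 130.5 bp from the start (chr4:86857209-86857264, 56 bp).

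In the large subunit, Rpl27 had a peak of 5.75 at the start (chr11:101442207-101442261, 55 bp), with its centre 11 bp from it. Rpl34 had a peak of 4.25 far from the gene, 33.7 kb beyond its 5' end (chr3:130764037-130764091, 55 bp), and the long non-coding RNA gene Gm43522 was nearer, at 3.01 kb. The remaining 51 Rpl genes and 31 Rps genes had no assigned peak. A further peak lay 70 bp from an end of Rpl18 but inside Sphk2, a sphingosine kinase gene, to which it was assigned (score 4.99, chr7:45715354-45715440). It was the only listed peak within 1 kb of an end of a translation gene that went to another gene.

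Mrpl and Mrps genes, named for the mitochondrial ribosome, had peaks at 7 of 78 (8.97%, 3.68 to 17.6%), against 6.68% of all protein-coding genes, inside that interval. None of the 7 scored above the median, where 32.6% of all assigned peaks did. Their scores ran from 4.08 to 4.40, and 5 of the 7 were at the score shared by 828 peaks of the list, 4.40. Dap3, a gene of the mitochondrial ribosome that the name rule leaves out, had a peak above the median, of 5.68. Among the Mrpl genes, Mrpl15 (4.40, chr1:4785728-4785809, 82 bp) had a peak across a gene end. Mrpl30 (4.08, chr1:37890450-37890542, 93 bp) had one across its start, in the narrow stretch it shares with Mitd1, whose body lay 47 bp from the peak centre. Both promoter windows, of Mrpl30 and of Mitd1, were overlapped, and the annotated starts were at 37890477 and 37890411. Mrpl45 (4.40, chr11:97315805-97315935, 131 bp) had a peak 947 bp inside the gene, and 154 bp from the annotated start. Mrpl1 (4.25, chr5:96209078-96209146, 69 bp) had one 386 bp beyond the 5' end. The peak of Mrpl3 (4.40, chr9:105100848-105100944, 97 bp) lay 23.4 kb beyond the 3' end.

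Among genes named for the mitochondrial small subunit, Mrps22 had a peak of 4.40 inside the gene, 137 bp from the start (chr9:98601472-98601612, 141 bp). Mrps30 had one of 4.40 at 41.1 kb beyond the 3' end (chr13:118338958-118339028, 71 bp), with no other protein-coding gene nearer than 358 kb. The other 27 Mrps and 44 Mrpl genes had none.

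**Figure D3:**
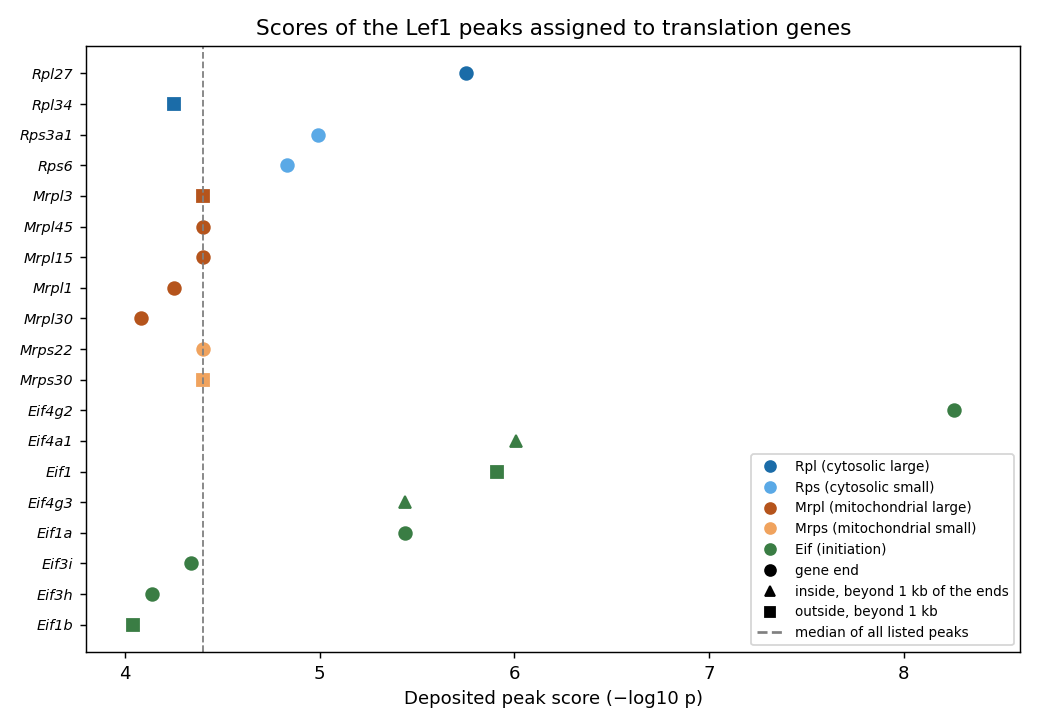
Deposited score (−log10 p) of 19 of the 20 peaks, by gene and class, with the shape giving its position and the dashed line the median of all listed peaks, 4.40. All 7 Mrpl and Mrps genes sit at or below the line, and Eif4g2 stands highest at 8.26. Over all assigned peaks 32.6% scored above the line.

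Over the 20 peaks scores ran from 4.04 to 8.26 with a median of 4.40, the same as over all assigned peaks. Above the median score lay 9 (45%), against 32.6% of all assigned peaks, and 7 (35%) scored 5 or more, against 23.4%. No intervals were computed for these shares, which rest on 20 peaks. The median width was 90 bp, against 81 bp. No translation gene had more than 1 peak, and 1281 of the 1461 genes with a peak also had 1. Of the 19 peaks described singly, the nearest other listed peak was between 24.7 kb (Eif3i) and 2190 kb (Eif1a) away. Of the 7 translation genes on X and Y, 6 on X and 1 on Y, none had a peak, where X held 15 of the listed peaks in all. The interval for 0 of 7 reached 41%, so this count does not separate them from the background. The share with a peak among all 1222 protein-coding genes on X and Y was not read.

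Distances from gene bodies to the nearest peak, whichever gene that peak was assigned to, were read in steps from 0 to 1000 kb. The share of translation genes within reach was above that of all genes at each step except 0. This held for the classes together but not for each. At 10 kb the Mrps genes stood at 3.45%, against 7.32% of all genes. A peak lay within 1 kb of the body at 16 of 221 (7.24%), against 5.35% of all genes, and within 50 kb at 45 (20.4%), against 15.5%. The body itself held a peak centre at 9 (4.07%), against 4.31%. The median distance was 218 kb for translation genes and 317 kb for all genes. By class it ran from 126 kb for Rps to 300 kb for Rpl. The lists are unequal in length and neighbouring genes share peaks, so these shares are a description.

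**Figure D4:**
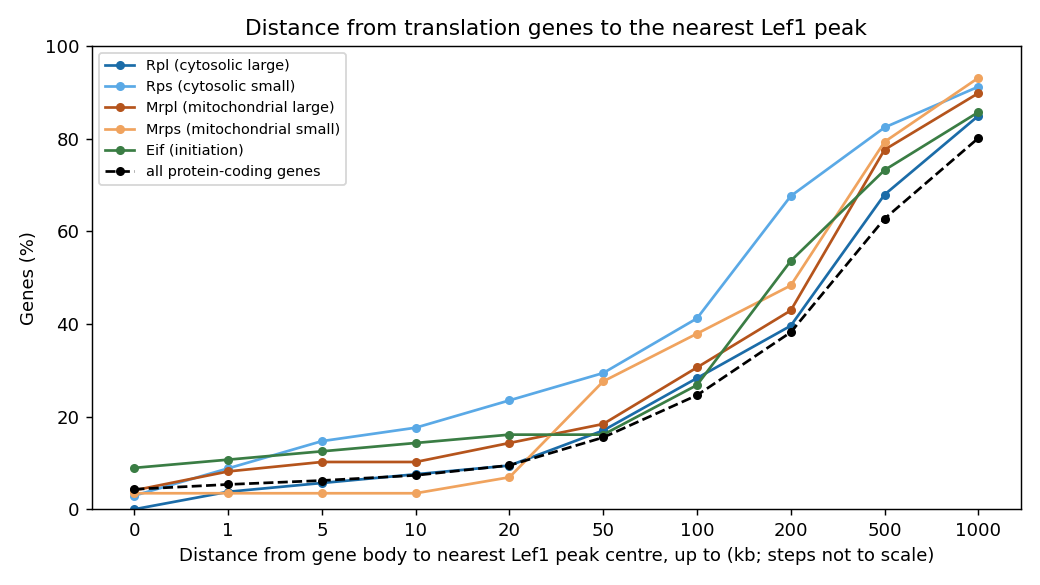
Percent of genes whose body lies within a given distance (kb, steps not to scale) of the nearest Lef1 peak centre, for each class and for all protein-coding genes (dashed). At 200 kb the classes ran from 39.6% (Rpl) to 67.6% (Rps), and all genes stood at 38.2%.

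Other genes of translation, in 7 lists outside the name rule, had peaks at 8 of 140 (5.71%, 2.5 to 10.9%), close to the 6.68% of all genes. Gene-end peaks were at 5 of the 140 (3.57%, 1.17 to 8.14%), against 1.79% of all protein-coding genes, inside that interval. Ribosome biogenesis factors had 2 of 30. Ncl, which encodes nucleolin, had 2 neighbouring peaks at its 5' end, of 6.54 and 4.14 (chr1:86359667-86359735 and chr1:86359552-86359606), and Rrp12 had 2 outside the gene, at 5.47 and 5.64 kb, of 5.18 and 4.08. Elongation and termination factors had 1 of 13, Eef1g (6.53), 128 bp inside a gene end. Aminoacyl-tRNA synthetase genes had 2 of 22. The peak of Gars, the glycyl-tRNA synthetase gene, scored 5.27 and lay at the 5' end, and that of Cars, the cysteinyl one, scored 4.40 and lay 15.8 kb inside the gene. Dap3, a mitochondrial ribosomal protein gene outside the name rule, had one of 5.68 near a gene end and was 1 of 11 in its list. RNA polymerase I and III genes had 1 of 26, Rrn3 (4.40), a gene for a polymerase I initiation factor. The list of mTOR and translation control had 1 of 24, Rptor (4.40), 70.1 kb inside the gene. Mitochondrial translation factors had 0 of 14.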

How the data were processed

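The data were 1 deposited peak list of the wild-type library, with the Lef1-deficient library as its control, per the labels. The deposited values are −log10 p per peak, per the file headers. FastQC, Bowtie2 2.3.4.1, MACS2 2.1.1 and build mm10 are named, per the submitters' processing notes, with no parameters. Depth is unknown, and peak numbers run from 26 to 33876 for 2052 listed peaks, so most numbered calls are not in the list. Starts were raised by 1, assuming BED coordinates. Genes and promoter windows came from RefSeq tables of GRCm38.p6, of which mm10 is the browser name.

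Each peak was given by its centre to the nearest protein-coding gene body within 50 kb. Where bodies overlapped (16 peaks, 0 of them at translation genes) the nearer gene end decided. The assignment and word search were tested on simulated data. Members with a peak were all named except 1, which is counted but not reported here, as were members with a gene-end peak given to another gene, and other translation genes with a peak. Genes, lists and words were chosen with earlier results of these data known. No test was run, since there were no replicates. Intervals given with shares are 95% exact Clopper-Pearson intervals for counting error only, and neighbouring genes are not independent. Alternatives changed distances, competing genes, scores, merging, background and words. Python 3.11.15, numpy 2.4.6, pandas 2.3.3 and scipy 1.17.1 were used.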

Additional observations from a re-analysis of the deposited data

How the results depend on the processing

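Of 74 repeats under other settings, 55 stayed within 1.5 times the reported count (or, for the ratio to the background, within its interval). Part of this tally was fixed in advance. Merging peaks within 1 kb could not alter member counts, since no member peak had another listed peak within 10 kb. Leaving out genes on X and Y, or paralogues, binding proteins and regulators, could not either, since none of those members had a peak. Members and their peaks, 1 each, were also the same count. Class counts rest on few genes: Rpl went from 2 to 1 within 10 kb, when every annotated gene could take a peak and above the median score, and Mrps from 2 to 1 within 10 kb and when a peak served every gene holding it or ending within 1 kb. Above the median score Mrpl and Mrps had 0 and Eif 5. With peaks above the median score alone, 9 members and 9 peaks remained, of which 6 members had a gene-end peak and 3 did not, and 5 of the other translation genes had a peak; fewer peaks, 628, were used there, and 2.28% of all genes had one. When every annotated gene could take a peak, 17 members kept one, Eif1b and Rpl34 being among those that lost theirs. At that setting 5.51% of all genes had a peak, and other translation genes fell to 5. With gene ends widened to 2.5 kb, 4 members had distal peaks only. For the gene-end and distal counts under these changed settings, no share of all genes was read. With annotated starts in place of ends, an alternative chosen after seeing the data, 7 members had a peak at a start and 13 did not, of which 6 have no window and 7 have a peak more than 1 kb from the start. The word CAAAG was in 3 of the 4 windows, against 1 for the longer words; it was in 58.2% of the 239 windows that a peak overlapped and 51.6% of all. The ratio of the members' share to that of all genes was 1.36 and lay between 1.28 and 1.79, except among genes with bodies up to 28.2 kb, where it was 2.14. No paired analysis was possible because each genotype has 1 library and only 1 peak list was used, and no replicate could be left out. Where no peak was listed, binding below this list's threshold cannot be told apart from none.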

Other observations

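Short words were counted in the promoter windows of translation genes and of all genes, whether or not a peak was near. The word CCGGAAG, of the ETS type, was in 34.4% of the 180 windows of translation genes, against 11.9% of the 17492 windows of all protein-coding genes, and lay between 31.7% (Rpl) and 42.3% (Mrps) in the 5 classes. The word AAGATGG, which YY1 sites hold, was in 15% against 6.37%, and CCAAT in 33.9% against 39%. The TCF/LEF words CTTTGAA or CTTTGAT were in 5% of the windows of translation genes, against 7.83% of all, and in 20.1% of the 239 windows that a Lef1 peak overlapped. All words were read on both strands. Of the 14 translation genes with a window and a peak, 10 held CCGGAA, against 80 of the 166 with no peak (48.2%). The word was chosen after the windows were seen, and the 4 windows printed above are among the 10. The contrast is thus partly fixed by the choice of the word. At 7 of the 14 the peak lay more than 1 kb from the annotated start.

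Runs of at least 6 C or T on the sense strand touching the 10 bases around the start were also counted. Such runs occur in the terminal oligopyrimidine tract known from mRNAs of ribosomal proteins. They were in 47.8% of the 67 windows of Rpl and Rps genes and 26.1% of the 69 windows of Mrpl and Mrps genes. The share was 13.6% of the 44 windows of Eif genes, against 20% of all windows. Of the 14 translation genes with a window and a peak, 4 had such a run.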
